A study of Homo sapiens with 15 samples.

Results

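The 43 genes described here encode the proteins that license DNA replication origins, open them and copy DNA at the replication fork, with the enzymes that supply deoxynucleotides. They were listed by name and function, not by their values, though earlier results of these data were known. All 43 were found among the 23346 gene symbols of the count table, and all 43 passed the filter on low counts, with at least 370 counts in every library. By role they fall into 9 licensing genes (ORC1 to ORC6, CDC6, CDT1 and GMNN), the 6 subunits of the MCM helicase (MCM2 to MCM7), 8 genes of origin firing (CDC7, DBF4, MCM10, CDC45 and GINS1 to GINS4), 6 polymerase genes (POLA1, POLA2, PRIM1, POLD1, POLE and POLE2), 6 genes of the sliding clamp and its loader (PCNA and RFC1 to RFC5), 2 genes that process and join Okazaki fragments (FEN1 and LIG1), 4 genes of nucleotide supply (RRM1, RRM2, TYMS and TK1), the transcription factor E2F1 and the helicase BLM.

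The study followed H9, a human embryonic stem cell line in long use, over a course that turns pluripotent cells into definitive endoderm, the embryonic layer from which gut, liver and pancreas form. Day 0 was the undifferentiated line in E8 medium, a defined medium for pluripotent cells. Cells of days 1, 2, 3 and 4 were in Advanced RPMI with activin A, a ligand that acts through the Nodal receptors, joined on the first day by CHIR99021, which inhibits GSK3 and so switches on Wnt signalling. Each of the 5 days had 3 polyA-selected bulk RNA-seq libraries, numbered 1, 2 and 4, and 15 libraries were compared in all. No label ties the 3 libraries of a day to separate cultures, so the p-values measure the spread between these libraries, which may be technical. Day 0 differed from every later day in medium as well as in agents, and these cannot be told apart.

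In the G1 phase of the cell cycle the origin recognition complex, with CDC6 and CDT1, loads MCM helicases onto DNA, and geminin (GMNN) later blocks CDT1 so that an origin is licensed once per cycle. At the start of S phase the CDC7-DBF4 kinase and cyclin-dependent kinases recruit CDC45 and the GINS complex, which turn the loaded MCM ring into an active helicase. Many of these genes are transcribed in a wave before S phase by E2F factors, whose activity is held down in G1 by the retinoblastoma protein, and human embryonic stem cells are known for a short G1 phase and a large share of cells in S phase. In bulk RNA, fewer cells in S phase and less RNA of these genes per cell cannot be told apart.

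The proximal promoters of the genes were read because E2F factors bind close to transcription start sites. Promoters of RefSeq, from 250 bases before to 50 bases after a start site on GRCh38.p14, were found for 40 of the 43 genes, as 51 promoter entries. The promoter set used here held no entry for MCM4, MCM5 and GINS4, which does not mean that RefSeq has none. An E2F word (TTTCCCGC, TTTGGCGC, TTTCGCGC or TTTGCCGC, on either strand) was in 21 of the 51 entries (41.2%), against 3.31% of all 35116 promoters in the set and 4.38% of the promoters of tested genes. The word CCAAT, on either strand and contained in none of the E2F words, was in 56.9% of the 51 entries and in 34.6% of all promoters. The word TTTGAA, the core of the cell cycle homology region bound by the DREAM complex, a repressor of cell cycle genes in resting cells, was in 3.92% of the entries and 15.2% of all promoters, on either strand. A match is a description of the letters, not of a factor bound there.

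The promoters shown are those of the 4 genes with the smallest joint p over the 5 days that have an entry, and that of ORC2, the gene with the largest. Capitals mark E2F words on either strand. CDC6 is at chr17:40287629-40287928 on the plus strand, MCM2 at chr3:127598161-127598460 on the plus strand, GINS3 at chr16:58392221-58392520 on the plus strand, MCM3 at chr6:52284693-52284992 on the minus strand and ORC2 at chr2:200963611-200963910 on the minus strand.
CDC6: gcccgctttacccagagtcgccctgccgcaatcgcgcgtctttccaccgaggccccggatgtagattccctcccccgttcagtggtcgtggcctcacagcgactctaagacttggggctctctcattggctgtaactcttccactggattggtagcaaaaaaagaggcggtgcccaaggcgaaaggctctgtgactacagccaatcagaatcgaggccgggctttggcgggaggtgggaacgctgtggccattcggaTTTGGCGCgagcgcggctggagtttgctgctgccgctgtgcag
MCM2: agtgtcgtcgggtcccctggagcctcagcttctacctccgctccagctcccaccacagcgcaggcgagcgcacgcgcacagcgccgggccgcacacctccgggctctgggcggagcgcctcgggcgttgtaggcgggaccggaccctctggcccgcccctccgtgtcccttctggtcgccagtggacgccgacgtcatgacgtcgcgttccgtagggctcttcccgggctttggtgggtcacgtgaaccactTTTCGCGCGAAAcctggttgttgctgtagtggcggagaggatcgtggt
GINS3: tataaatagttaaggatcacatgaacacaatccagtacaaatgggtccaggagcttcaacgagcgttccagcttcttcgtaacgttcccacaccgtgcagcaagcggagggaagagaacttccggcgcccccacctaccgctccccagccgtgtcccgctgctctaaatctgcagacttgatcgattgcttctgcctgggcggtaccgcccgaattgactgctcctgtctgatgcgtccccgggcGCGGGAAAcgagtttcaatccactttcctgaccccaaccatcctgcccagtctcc
MCM3: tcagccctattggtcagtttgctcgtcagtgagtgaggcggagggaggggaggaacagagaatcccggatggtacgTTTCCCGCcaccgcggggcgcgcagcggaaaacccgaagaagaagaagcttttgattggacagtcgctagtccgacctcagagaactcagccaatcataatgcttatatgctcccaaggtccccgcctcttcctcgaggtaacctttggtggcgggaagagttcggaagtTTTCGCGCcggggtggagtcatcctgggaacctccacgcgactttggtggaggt
ORC2: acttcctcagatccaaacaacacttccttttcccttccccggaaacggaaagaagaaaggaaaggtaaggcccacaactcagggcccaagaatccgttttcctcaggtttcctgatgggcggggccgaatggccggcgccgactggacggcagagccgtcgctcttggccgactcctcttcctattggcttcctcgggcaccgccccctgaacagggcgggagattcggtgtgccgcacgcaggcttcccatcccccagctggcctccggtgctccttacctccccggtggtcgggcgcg
In the MCM2 promoter the 2 words overlap, 1 on each strand, and in the MCM3 promoter 2 words lie apart, while the ORC2 window held none. Of the 21 genes with an E2F word, 14 were lower on day 4 than on day 0 at an adjusted p under 0.05, and so were 10 of the 19 genes that had a promoter entry without the word. Among all tested genes 16.2% were lower there. On day 3 against day 2 the order was the other way, with 2 of the 21 and 4 of the 19 lower, against 0.287% of all tested genes. The difference between genes with and without the word was not tested.

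Total counts ran from 54723184 to 145857940 per library. The labels were checked against marker genes. The summed level of 6 endoderm markers (SOX17, FOXA2, CXCR4, GATA6, CER1 and HHEX) was 921, 4432 and 3181 CPM in replicates 1, 2 and 4 of day 4, against 30.1, 25.7 and 33.8 CPM on day 0, and that of 6 pluripotency markers was 196, 175 and 331 CPM on day 4, against 1881, 1771 and 1836 CPM on day 0. Replicate 1 of days 3 and 4 had the lowest endoderm sums of those days (1046 CPM on day 3, against 5664 and 2827 CPM in replicates 2 and 4), and replicate 1 of day 3 had the highest sum of 6 mesoderm markers of its day, 287 CPM. The single endoderm markers differed. CER1, GATA6 and CXCR4 were lowest in replicate 1 on both days, and SOX17 on day 4. FOXA2 had 252, 116 and 48.2 CPM on day 3 and 171, 210 and 89.6 CPM on day 4 in replicates 1, 2 and 4. SOX17 on day 3 and HHEX on both days were not lowest in replicate 1 either. Markers of other lineages were higher on day 4 as well: the mesoderm sum was 121, 41.9 and 115 CPM on day 4, against 2.46, 2.39 and 5.64 CPM on day 0, with 3 of the 6 (MESP1, HAND1 and FOXF1) called higher and none lower, and the sum of 5 primitive streak markers was 102, 727 and 676 CPM, against 4.38, 4.55 and 6.56 CPM, with all 5 called higher. The sum of 6 trophoblast markers stayed below 0.7 CPM in every library, with CGB5 and PSG1 at 0 in all libraries of days 0, 1, 3 and 4, and among 6 neural and ectoderm markers only PAX6 passed the filter. The sum of those 6 was 2.51, 61.9 and 18.1 CPM on day 4, against 2.73, 1.18 and 0.910 CPM on day 0, with SOX1 and TFAP2B at 0 on day 4. PAX6 was called higher on day 4 against day 0 by edgeR (4.06 ± 1.14, adjusted p = 0.0128). Of the trophoblast markers GCM1 was called higher there (6.85 ± 1.58, adjusted p = 0.00631), at 0.137, 0.160 and 0.177 CPM on day 4, and HLA-G was not called. The part of these markers in the results was not tested. The marker sums are CPM on library totals without TMM scaling. Other values are CPM, counts scaled to a common library total, on TMM-scaled library sizes. Where 3 values stand in a row they are replicates 1, 2 and 4. Values with ± in brackets are log2 fold changes, later over earlier day, with their standard errors. Unless another tool or setting is named, a gene that fell, rose, was called or passed the test did so by edgeR's quasi-likelihood test on all 15 libraries.

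On days 0, 2, 3 and 4 the libraries numbered 4 also differed from the others of their day in a way tied to GC content. On day 0 the 15 genes with a transcript GC content of at least 50% had a median of 0.71 on the log2 scale in replicate 4 relative to the mean of replicates 1 and 2, and the 28 genes below 50% had a median of -0.56. The 2 medians were 0.24 and -0.79 on day 2, 0.40 and -0.68 on day 3, 0.40 and -0.21 on day 4, and -0.18 and -0.15 on day 1. Of the 15 GC-rich genes, 14 were above the mean of replicates 1 and 2 in replicate 4 on day 0. The same held for 10 on each of days 2, 3 and 4. A split by GC was not particular to number 4. Against the mean of the other libraries of its day, replicate 1 had medians of -0.499 and 0.286 on day 0 and of -0.115 and 0.781 on day 4. Each library enters the mean that the others are set against, so these values depend on each other. The part of this pattern in any result below was not tested beyond the values given without those libraries and with GC and length trends removed.

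**Figure D1:**
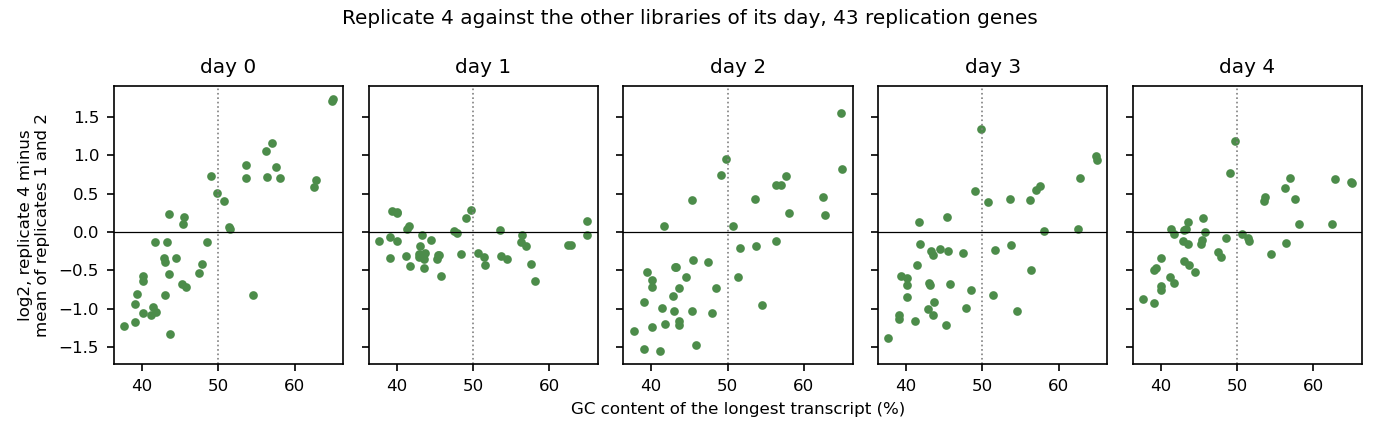
Level of each of the 43 replication genes in replicate 4 of a day relative to the mean of replicates 1 and 2 (log2 CPM difference, vertical axis) against the GC content of its longest transcript in percent (horizontal axis), a panel per day; the dotted line is at 50% GC. Points right of the line lie mostly above 0 on days 0, 2, 3 and 4, with medians of 0.71, 0.24, 0.40 and 0.40, and those left of it mostly below.

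The replication genes as a group were high on days 0, 1 and 2 and low on days 3 and 4. They held 0.590, 0.682 and 0.676% of all counts in replicates 1, 2 and 4 of day 0, 0.642, 0.680 and 0.606% on day 1, 0.547, 0.520 and 0.423% on day 2, 0.263, 0.284 and 0.210% on day 3 and 0.365, 0.222 and 0.280% on day 4. No library of days 3 or 4 reached the lowest share of days 0 to 2. The highest mean was that of day 0 in 20 genes, day 1 in 16, day 2 in 6 and day 4 in TYMS alone. The lowest was that of day 3 in 27 genes and that of day 4 in 13. For 13 of the 43 genes every library of days 3 and 4 lay below every library of days 0, 1 and 2, against 2.21% of all tested genes, a count chosen after the values were seen. These 13 were ORC1, CDC6, MCM2, MCM3, MCM4, MCM6, MCM10, CDC45, GINS3, POLA1, RFC2, FEN1 and RRM2.

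**Figure D2:**
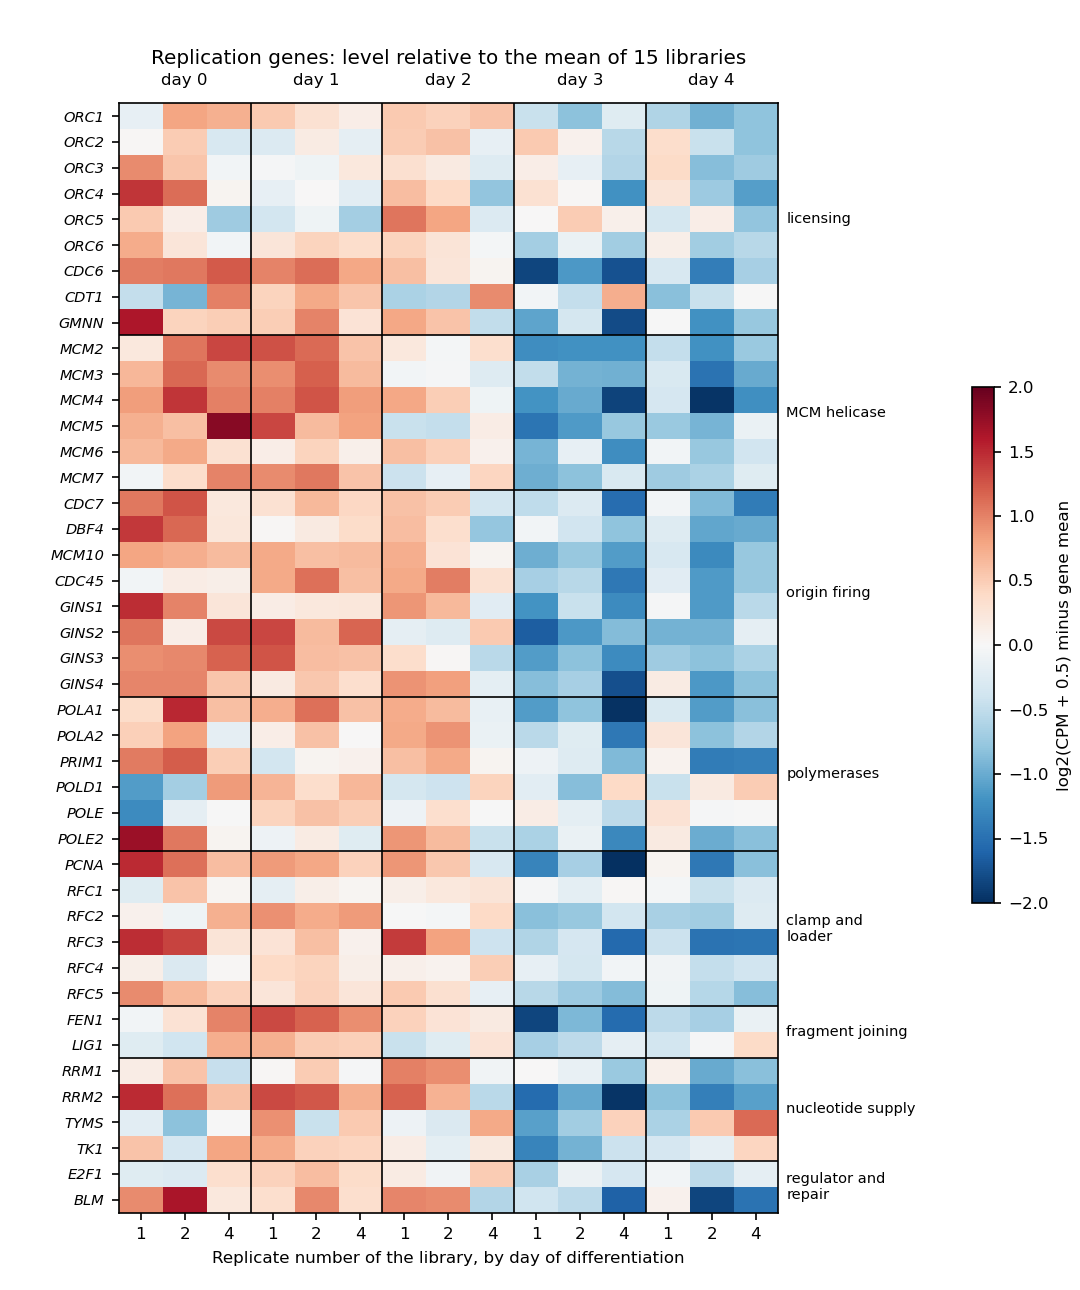
Level of the 43 replication genes, 1 per row and ordered by role, in the 15 libraries, 1 per column from day 0 at the left to day 4 at the right with the replicate number below; colour is log2(CPM + 0.5) minus the gene's mean over all libraries. Most rows are above their mean on days 0 to 2 and below it on days 3 and 4, and replicate 1 of day 4 is above replicates 2 and 4 of that day for 31 genes.

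Over the whole course, day 4 against day 0, 27 of the 43 genes fell and none rose, by edgeR's quasi-likelihood test at an adjusted p under 0.05. That is 62.8% of the genes, against 16.2% of all 17401 tested genes lower and 18.0% higher. Unadjusted p under 0.05 gave 30 lower and 0 higher, and DESeq2 called 27 lower and 0 higher. Their median log2 fold change was -1.30, beside -0.02 for all tested genes. No library of day 4 reached a library of day 0 for 26 of the 43 genes, against 19.5% of all tested genes. The count of 27 was again 27 without replicate 1 of days 3 and 4 and was 25 without the 5 libraries numbered 4. Since day 0 had another medium, day 4 was also set against day 1: 17 genes fell and none rose (0 higher by unadjusted p and by DESeq2), against 8.93% lower and 11.8% higher among all tested genes, with a median of -0.92 beside 0.01. Those 2 comparisons share the day 4 libraries. In the joint test of all days 28 genes changed (65.1%), against 37.3% of all tested genes.

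Among consecutive days the count of calls was 0 on day 1, 1 on day 2, 7 on day 3 and 0 on day 4, an order that other settings changed: fitting only the days compared gave 5 lower on day 2 and 0 on day 3, and leaving out the 5 libraries numbered 4 gave 4 calls on day 1, 3 on day 2 and 1 on day 3. In the first day, day 1 against day 0, no gene was called in either direction, against 5.49% of all tested genes higher and 4.88% lower; unadjusted p under 0.05 gave 3 higher and 4 lower, and DESeq2 called POLE higher and none lower. Without replicate 4 of day 0, FEN1, POLD1, POLE and RFC2 were called higher and POLE2 lower on day 1, and without replicate 4 of every day CDT1 and POLD1 were called higher and DBF4 and ORC4 lower. Day 2 against day 1 had 1 call, MCM3 lower, and none higher, against 3.34% lower and 4.93% higher in all genes; unadjusted p gave 9 lower and 1 higher, and DESeq2 called 3 lower (GINS3, MCM3 and MCM5) and 0 higher. The MCM3 call was lost without any single library of days 1 or 2, without replicate 4 of day 4, without all 5 libraries numbered 4, and with GC and length trends removed.

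Day 3 against day 2 had 7 genes lower (CDC6, MCM2, MCM4, MCM10, CDC45, FEN1 and RRM2) and none higher. That is 16.3% of the 43 genes, against 0.287% of all tested genes lower (50 genes) and 0.661% higher (115 genes). Unadjusted p gave 29 lower and 0 higher, DESeq2 called 17 lower and 0 higher, and the median log2 fold change was -0.98 beside 0.01 for all tested genes. The mean was lower on day 3 than on day 2 for 42 of the 43 genes, CDT1 being the exception (log2 fold change 0.04 ± 0.51, and -0.22 with GC and length trends removed), and no library of day 3 reached a library of day 2 for 26 genes, against 8.75% of all tested genes. The count of calls rested on single libraries: it was 0 without replicate 1 or replicate 2 of day 2 or replicate 1 of day 3, 1 without replicate 4 of day 3, 3 without replicate 1 of day 1, and 4 without replicate 2 or replicate 4 of day 1. It was 1 (CDC6) without replicate 1 of days 3 and 4, 1 (RRM2) without the 5 libraries numbered 4, 0 when only these days were fitted, and 19 with GC and length trends removed. Same-numbered libraries of days 2 and 3 deviated together (correlations of 0.470, 0.629 and 0.815), but so did numbers 1 and 2 with each other. Number 1 of day 2 correlated at 0.470 with number 2 of day 3, and number 2 of day 2 at 0.468 with number 1 of day 3. Number 4 correlated negatively with both other numbers. With the replicate number as a block in the fit of all libraries 16 genes were lower and none higher.

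Day 4 against day 3 had no call among the 43 genes, nor among all 17401 (0.0% in each direction). Unadjusted p under 0.05 gave 3 higher and 0 lower, DESeq2 called 0 in either direction, and so did the fit with the replicate number as a block. The mean was above that of day 3 for 29 genes, with a median log2 fold change of 0.21 beside 0.01 for all genes. All libraries of day 4 lay above all of day 3 for 2 genes, FEN1 and TK1 (named after their values were seen), against 4.95% of all tested genes.

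**Figure D3:**
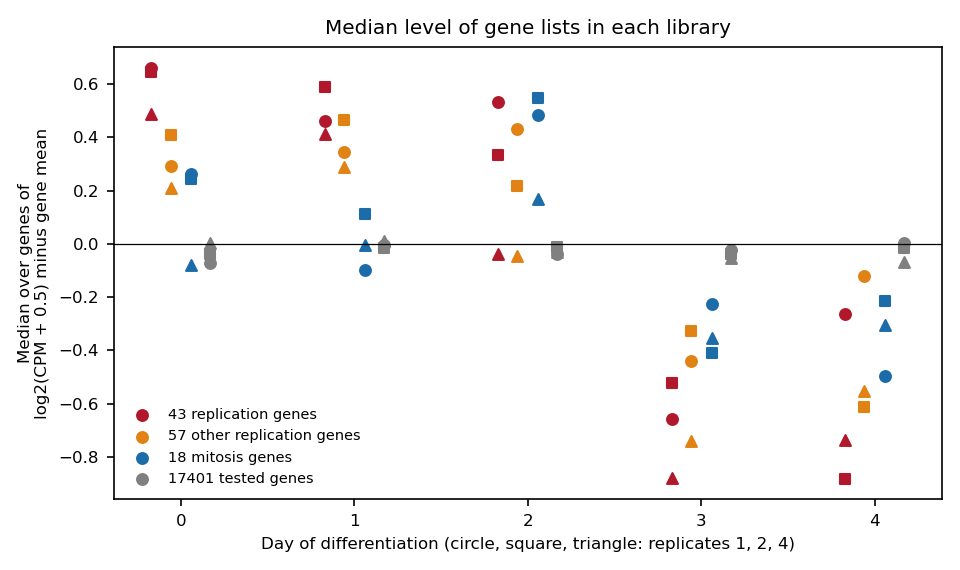
Median over the genes of a list of log2(CPM + 0.5) minus each gene's mean (vertical axis), a point per library, for the 43 replication genes, 57 other replication genes, 18 mitosis genes and all 17401 tested genes, by day (horizontal axis). The replication genes lie between -0.0388 and 0.662 on days 0 to 2 and between -0.881 and -0.264 on days 3 and 4, while all tested genes stay near 0.

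The counts by role below stand beside shares of all tested genes called lower. These were 16.2% on day 4 against day 0, 8.93% on day 4 against day 1 and 0.287% on day 3 against day 2. The licensing genes were split. Of these 9 genes, 4 fell on day 4 against day 0 (ORC1, ORC4, CDC6 and GMNN), 1 fell on day 3 against day 2 (CDC6), and ORC2, ORC3, ORC5, ORC6 and CDT1 passed edgeR's test in no comparison. CDC6 is the ATPase that joins the origin recognition complex to load MCM rings. CDC6 had 207, 213 and 240.0 CPM on day 0, 204, 223 and 174 CPM on day 1, 155, 120.5 and 106 CPM on day 2, 28.3, 45.6 and 30.05 CPM on day 3 and 82.01, 38.9 and 63.99 CPM on day 4. Every library of days 3 and 4 was below every earlier one. On day 4 CDC6 was 3.57 times lower than on day 0 (log2 fold change -1.84 ± 0.30, adjusted p = 0.000348), and 3.67 times lower on day 3 than on day 2 (-1.87 ± 0.30, adjusted p = 0.0122). Its day means spanned 6.35-fold, the widest range of the 43 genes.

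ORC1 is the one subunit of the origin recognition complex whose protein is known to come and go with the human cell cycle. ORC1 had 59.6, 116 and 110.4 CPM on day 0, 96.1, 83.1 and 73.9 CPM on day 1, 97.1, 92.8 and 100.2 CPM on day 2, 48.98, 37.9 and 56.9 CPM on day 3 and 43.96, 34.4 and 38.1 CPM on day 4. All libraries of days 3 and 4 were below all earlier ones, and the day 4 level was 2.46 times lower than the day 0 level (log2 fold change -1.30 ± 0.28, adjusted p = 0.00254). Geminin, the inhibitor of CDT1, had the highest level per transcript length of the licensing genes, 126 CPM per kb. GMNN had 406, 182 and 186 CPM on day 0, 187, 264 and 161 CPM on day 1, 226, 198 and 94.5 CPM on day 2, 63.2, 104 and 37.96 CPM on day 3 and 132, 57.0 and 77.9 CPM on day 4. Replicate 1 was the highest on day 0, and no library of day 4 reached one of day 0 (-1.53 ± 0.46, adjusted p = 0.0177 on the log2 scale). The GMNN call was lost without replicate 1 of day 0, without replicate 2 or replicate 4 of day 4, and with GC and length trends removed.

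CDT1, the loader that geminin blocks, did not pass edgeR's test. CDT1 had 36.99, 26.97 and 104 CPM on day 0, 70.8, 87.6 and 76.3 CPM on day 1, 33.1, 34.1 and 99.4 CPM on day 2, 49.6, 36.8 and 85.3 CPM on day 3 and 28.6, 37.6 and 51.6 CPM on day 4. Replicate 4 was the highest library on days 0, 2, 3 and 4, and the groups overlapped (day 4 against day 0, log2 fold change -0.51 ± 0.51, adjusted p = 0.462). With GC and length trends removed CDT1 was called lower on day 4 (log2 fold change -1.28, adjusted p = 0.000871). ORC2, the core subunit whose promoter is shown above, had the narrowest range of day means in the group, 1.47-fold. The ORC4 call (log2 fold change -1.39 ± 0.48, adjusted p = 0.034) was lost when replicate 1 or 2 of day 0 or replicate 2 or 4 of day 4 was left out, and ORC4 shares exon sequence with ACVR2A and MBD5 on the opposite strand, so that its counts are uncertain.

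All 6 subunits of the MCM helicase fell on day 4 against day 0, with a median log2 fold change of -1.72, against 16.2% of all tested genes. Of the 6, 5 fell on day 4 against day 1, MCM6 not passing, against 8.93% of all tested genes. On day 3 against day 2 only MCM2 and MCM4 of them fell, and on day 2 against day 1 only MCM3. The ring of MCM2 to MCM7 is the motor that unwinds DNA ahead of the fork. MCM4 had 567, 860.4 and 636 CPM on day 0, 640.2, 759 and 569 CPM on day 1, 546, 447 and 298 CPM on day 2, 139, 158 and 87.9 CPM on day 3 and 252, 81.6 and 136 CPM on day 4. Days 3 and 4 were below every earlier library. MCM4 had the widest range of day means in the ring, 5.36-fold, and was 4.40 times lower on day 4 than on day 0 (log2 fold change -2.14 ± 0.39, adjusted p = 0.000738). Its change on day 3 against day 2 was -1.75 ± 0.38, adjusted p = 0.0435.

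MCM3 was the 1 gene called lower on day 2. MCM3 had 404, 565 and 492 CPM on day 0, 487, 588 and 397 CPM on day 1, 246, 250.5 and 214 CPM on day 2, 182, 132 and 131 CPM on day 3 and 206, 91.5 and 127 CPM on day 4. Every library of day 2 was below every library of day 1, and every library of day 3 below every library of day 2, while days 3 and 4 overlapped. The change was -1.05 ± 0.30, adjusted p = 0.0406 on day 2 against day 1 and -1.78 ± 0.31, adjusted p = 0.000461 on day 4 against day 0 (log2 fold changes ± SE). MCM2 was close to constant among the day 3 libraries. MCM2 had 154, 279 and 337 CPM on day 0, 323, 294 and 198 CPM on day 1, 155, 129 and 168 CPM on day 2, 55.8, 57.2 and 57.04 CPM on day 3 and 96.1, 56.98 and 79.8 CPM on day 4. It was 2.66 times lower on day 3 than on day 2 (-1.41 ± 0.31, adjusted p = 0.0435) and 3.31 times lower on day 4 than on day 0 (-1.73 ± 0.31, adjusted p = 0.000723).

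MCM7 had the highest level per transcript length in the ring, 114 CPM per kb. MCM7 had 305, 402 and 629 CPM on day 0, 608, 654 and 471 CPM on day 1, 234, 281 and 426 CPM on day 2, 160.3, 178 and 256 CPM on day 3 and 193, 203 and 267 CPM on day 4. Replicate 4 was the highest library of days 0, 2, 3 and 4, days 2 and 3 overlapped, and day 4 lay wholly below day 0 (-1.01 ± 0.32, adjusted p = 0.0241). The MCM7 call against day 0 was lost without replicate 4 of day 0, replicate 1 or 2 of day 4, or replicate 1 of days 3 and 4 together, and the MCM6 call (-0.96 ± 0.30, adjusted p = 0.0231) without replicate 1 or 2 of day 0 or replicate 2 or 4 of day 4. MCM2 shares exon sequence with TPRA1 and MCM7 with AP4M1, each on the opposite strand. MCM5 fell as well (-1.72 ± 0.37, adjusted p = 0.0025).

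**Figure D4:**
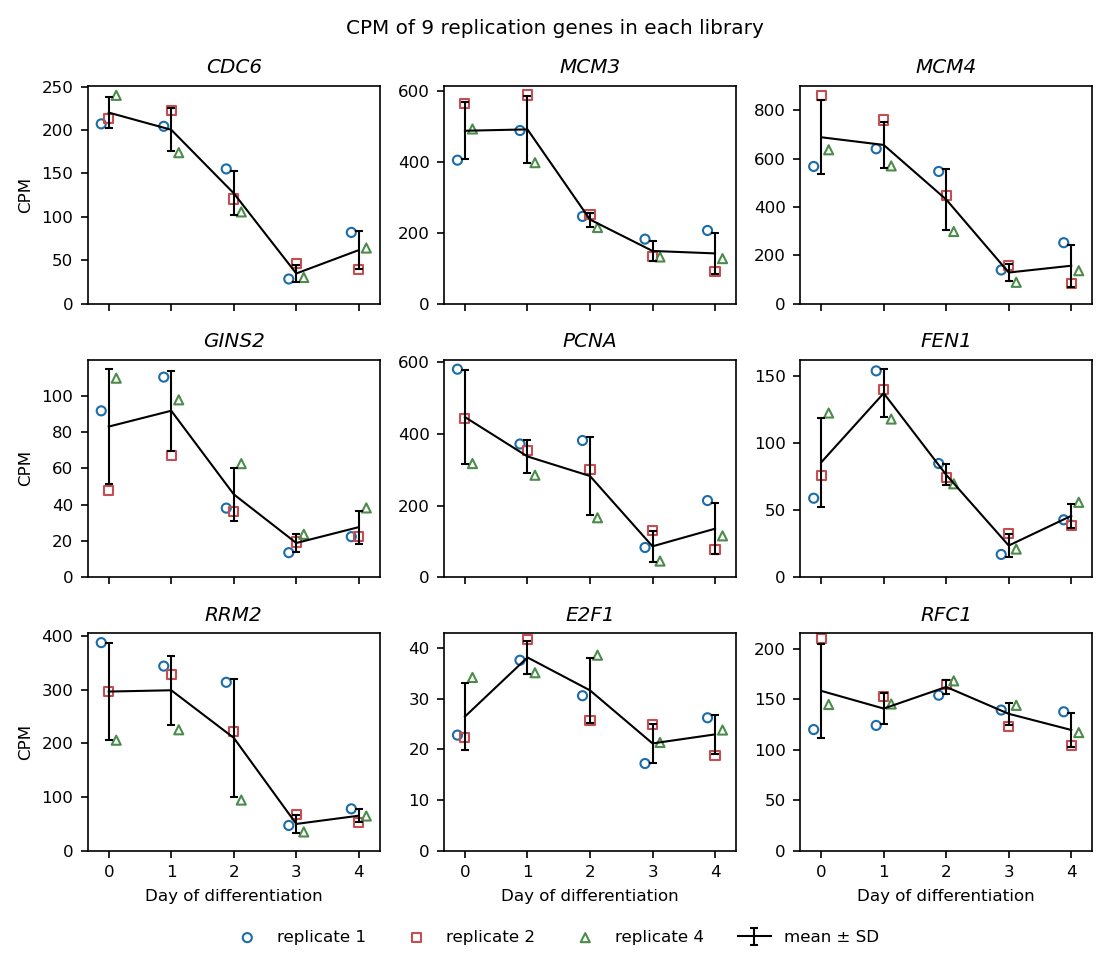
CPM (vertical axis, from 0) of CDC6, MCM3, MCM4, GINS2, PCNA, FEN1, RRM2, E2F1 and RFC1 by day of differentiation (horizontal axis); open symbols are the 3 libraries of a day and the black line is their mean ± SD. In CDC6, MCM3, MCM4, FEN1 and RRM2 no library of days 3 or 4 reaches one of days 0 to 2, whereas the RFC1 libraries of different days overlap.

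Of the 8 origin firing genes, 7 fell on day 4 against day 0, CDC45 being the exception, and MCM10 and CDC45 fell on day 3 against day 2. The GINS complex of 4 subunits joins CDC45 and the MCM ring into the active helicase. GINS2 had 91.6, 47.6 and 109.6 CPM on day 0, 110.2, 67.2 and 97.7 CPM on day 1, 38.02, 36.3 and 62.5 CPM on day 2, 13.5, 19.3 and 23.6 CPM on day 3 and 22.3, 22.2 and 38.1 CPM on day 4. The libraries of day 3 were all below those of day 2, and those of day 4 all below those of day 0 (-1.59 ± 0.37, adjusted p = 0.00438). GINS1 had 198, 142 and 84.4 CPM on day 0, 79.1, 81.97 and 82.7 CPM on day 1, 131, 112 and 60.6 CPM on day 2, 30.8, 51.7 and 29.4 CPM on day 3 and 69.5, 32.2 and 48.6 CPM on day 4. Its day 0 libraries were spread widely, with replicate 1 highest, and day 4 lay below all of them (-1.50 ± 0.38, adjusted p = 0.00779). GINS1 had the highest level per transcript length among these genes and GINS2 the widest range of day means, 4.88-fold.

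GINS3, at 6.98 CPM per kb the lowest of all 43 genes for its length, was among those with the smallest joint p (adjusted p = 0.000123) and is named here for its promoter. GINS3 had 36.2, 36.9 and 42.96 CPM on day 0, 45.8, 29.2 and 28.4 CPM on day 1, 24.1, 19.1 and 12.7 CPM on day 2, 8.37, 10.4 and 7.52 CPM on day 3 and 11.3, 10.4 and 11.9 CPM on day 4. Days 3 and 4 lay below every earlier library. It was 3.45 times lower on day 4 than on day 0 (-1.79 ± 0.31, adjusted p = 0.000458). CDC45, the helicase cofactor that limits firing, took another course and is named after its values were seen. CDC45 had 28.99, 33.4 and 32.4 CPM on day 0, 50.98, 64.8 and 45.7 CPM on day 1, 51.1, 61.2 and 37.2 CPM on day 2, 18.8, 20.3 and 10.8 CPM on day 3 and 25.6, 13.4 and 17.4 CPM on day 4. Every library of day 1 was above every library of day 0, and days 3 and 4 were below all others. The log2 fold change was -1.58 ± 0.32, adjusted p = 0.0324 on day 3 against day 2 and -1.52 ± 0.32, adjusted p = 0.00384 on day 4 against day 1. Neither day 1 (0.77 ± 0.32, adjusted p = 0.148) nor day 4 (-0.75 ± 0.32, adjusted p = 0.0804) passed the test against day 0.

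For MCM10, a firing factor that binds the assembled helicase, the change was -1.46 ± 0.28, adjusted p = 0.0011 on day 4 against day 0. CDC7 and DBF4, the kinase and its activating subunit, were 3.02 and 3.36 times lower on day 4 than on day 0. DBF4 shares exon sequence with SLC25A40 and has a pseudogene, so its counts are uncertain. The GINS4 call was lost without replicate 2 or replicate 4 of day 4.

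The 6 polymerase genes divided. POLA1, PRIM1 and POLE2 fell on day 4 against day 0, while POLA2, POLD1 and POLE passed edgeR's test in no comparison; DESeq2 called POLE higher on day 1. POLA1 is the catalytic subunit of polymerase alpha, which with primase starts every new strand. POLA1 had 139, 307 and 163 CPM on day 0, 179, 232 and 162 CPM on day 1, 180.3, 168 and 97.0 CPM on day 2, 49.5, 61.2 and 27.04 CPM on day 3 and 87.04, 49.3 and 60.1 CPM on day 4. Days 3 and 4 were below all earlier libraries, and the day 4 level was 3.10 times lower than on day 0 (-1.63 ± 0.39, adjusted p = 0.0046). PRIM1, the catalytic primase subunit, had the highest level per length of this group. PRIM1 had 76.9, 86.8 and 52.4 CPM on day 0, 28.8, 38.7 and 39.7 CPM on day 1, 56.9, 62.9 and 38.4 CPM on day 2, 34.5, 31.03 and 19.98 CPM on day 3 and 39.1, 13.8 and 14.1 CPM on day 4. Its day 1 libraries were already below those of day 0 without passing the test (-1.01 ± 0.40, adjusted p = 0.123), and day 4 against day 0 was -1.69 ± 0.40, adjusted p = 0.00478, or -2.30 without replicate 1 of day 4. PRIM1 shares exon sequence with HSD17B6 on the opposite strand.

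The catalytic subunits of the fork polymerases differed from POLA1 in course and are named after their values were seen. POLE, which copies the leading strand, was lowest on day 0. POLE had 33.4, 71.3 and 80.3 CPM on day 0, 110.2, 121 and 113 CPM on day 1, 74.6, 102 and 80.2 CPM on day 2, 89.5, 70.6 and 56.02 CPM on day 3 and 97.99, 79.1 and 79.8 CPM on day 4. All day 1 libraries were above all day 0 libraries (0.90 ± 0.31, adjusted p = 0.0784 by edgeR), and day 4 against day 0 was 0.47 ± 0.31, adjusted p = 0.246. POLD1, which copies the lagging strand, had 32.3, 49.9 and 62.6 CPM on day 4, against 20.1, 27.4 and 79.7 CPM on day 0, and replicate 4 was the highest library of both days. The direction of both depended on the GC and length trends. With these removed the change on day 4 against day 0 was -0.24 for POLE, not called, and -0.60 for POLD1 (adjusted p = 0.0158), in place of 0.47 and 0.19. The POLE2 call (-1.60 ± 0.49, adjusted p = 0.0203) was lost without replicate 1 of day 0 or without replicate 2 or replicate 4 of day 4.

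Of the sliding clamp and its loader, PCNA, RFC2, RFC3 and RFC5 fell on day 4 against day 0, and RFC1 and RFC4 passed edgeR's test in no comparison. DESeq2 called RFC4 lower on day 4 against day 1 (log2 fold change -0.60, adjusted p = 0.0436), where edgeR gave -0.63 ± 0.24, adjusted p = 0.0763. PCNA, the ring that tethers polymerases to DNA, had the highest level per transcript length of all 43 genes, 190.0 CPM per kb. PCNA had 581, 443 and 317 CPM on day 0, 372, 355 and 285 CPM on day 1, 382, 300.0 and 166 CPM on day 2, 82.9, 131 and 44.8 CPM on day 3 and 214, 76.5 and 115 CPM on day 4. On days 0, 2, 3 and 4 its libraries differed widely, yet every library of day 3 was below every library of day 2 and every library of day 4 below every library of day 0. Day 4 was 3.31 times lower than day 0 (-1.73 ± 0.44, adjusted p = 0.00765). Against day 1 the PCNA call was lost without any of 8 single libraries, replicate 1, 2 or 4 of day 1 among them.

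RFC3, a small subunit of the loader, had the second largest change of the 43 genes on day 4 against day 0, after RRM2. RFC3 had 226, 206 and 95.95 CPM on day 0, 97.4, 123 and 85.9 CPM on day 1, 214, 141 and 60.1 CPM on day 2, 52.6, 64.0 and 27.1 CPM on day 3 and 59.6, 28.7 and 29.1 CPM on day 4. Day 4 lay below day 0 in all libraries (-2.17 ± 0.48, adjusted p = 0.00309), while days 2 and 3 overlapped. RFC1, the large subunit of the loader, had the narrowest range of day means of all 43 genes, 1.36-fold, and is named after its values were seen. RFC1 had 119.9, 210.0 and 145 CPM on day 0, 124, 153 and 145 CPM on day 1, 154, 164 and 168 CPM on day 2, 139, 123 and 144 CPM on day 3 and 138, 104 and 117 CPM on day 4. Its days overlapped (day 4 against day 0, -0.41 ± 0.25, adjusted p = 0.217). RFC2 fell by 0.80 on the log2 scale, a call lost in 15 of 27 alternatives, 10 of them with a single library left out. PCNA, RFC3 and RFC5 have pseudogenes that could share reads, and RFC4 shares exon sequence with EIF4A2.

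FEN1, the nuclease that trims Okazaki fragments, was highest on day 1. FEN1 had 58.95, 75.6 and 123 CPM on day 0, 154, 140.2 and 118 CPM on day 1, 84.9, 74.7 and 69.7 CPM on day 2, 16.9, 32.9 and 20.95 CPM on day 3 and 42.8, 38.6 and 55.9 CPM on day 4. Day 3 was below every library of days 0 to 2, and the day 4 libraries were between these levels, above all of day 3 and below all of day 0. FEN1 was 3.24 times lower on day 3 than on day 2 (-1.70 ± 0.32, adjusted p = 0.0223) and 3.00 times lower on day 4 than on day 1 (-1.59 ± 0.32, adjusted p = 0.00264). Against day 0 the day 4 change was smaller (-0.91 ± 0.32, adjusted p = 0.0363) and was lost without any of 9 single libraries, and FEN1 overlaps FADS2 on the same strand. LIG1, the ligase that seals the fragments, had 36.8, 46.9 and 62.01 CPM on day 4, against 40.02, 36.2 and 79.5 CPM on day 0, with overlapping libraries (-0.10 ± 0.33, adjusted p = 0.848). With GC and length trends removed LIG1 was called lower on day 4 against day 0 (-0.63 on the log2 scale, adjusted p = 0.0125), on day 4 against day 1 and on day 2 against day 1.

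In nucleotide supply RRM2 alone of the 4 genes fell by edgeR, and TK1 was called lower with GC and length trends removed. RRM2 is the small subunit of ribonucleotide reductase, whose level in cycling cells is known to follow S phase, and RRM1 is the large subunit. RRM2 had 387, 296 and 206 CPM on day 0, 344, 328 and 225 CPM on day 1, 314, 222 and 94.3 CPM on day 2, 46.96, 67.6 and 34.9 CPM on day 3 and 77.95, 52.99 and 64.5 CPM on day 4. Days 3 and 4 were below all earlier libraries. The fall was the largest of the 43 genes, 4.55 times lower on day 4 than on day 0 (-2.19 ± 0.41, adjusted p = 0.000895), and on day 3 against day 2 it was -2.08 ± 0.41, adjusted p = 0.0242. RRM1 had 237, 319 and 155 CPM on day 0, 218, 303 and 209 CPM on day 1, 428, 407 and 204 CPM on day 2, 214, 192 and 128 CPM on day 3 and 228, 106 and 119.6 CPM on day 4. It was highest on day 2, and its day 4 and day 0 libraries overlapped (-0.65 ± 0.38, adjusted p = 0.195). RRM2 has pseudogenes that could share reads.

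TYMS, thymidylate synthase, was the one gene with its highest mean on day 4. It had 18.2, 41.2 and 63.1 CPM on day 4, against 24.7, 16.1 and 28.5 CPM on day 0. Replicate 1 of day 4 lay within the day 0 range and the other day 4 libraries above it, and the change was not called (0.82 ± 0.51, adjusted p = 0.222). TYMS overlaps ENOSF1 and has pseudogenes, so its level is uncertain. TK1, thymidine kinase, was called in the joint test (adjusted p = 0.0282) and in no single comparison, and the joint call was lost in 10 of 26 alternatives, 9 of them with a single library left out (adjusted p up to 0.147). It had 15.6, 20.3 and 29.3 CPM on day 3, against 43.6, 34.6 and 45.3 CPM on day 2, where day 3 lay below day 2 in all libraries (-0.92 ± 0.34, adjusted p = 0.210). With GC and length trends removed TK1 was called lower on day 3 against day 2 (-1.28 on the log2 scale, adjusted p = 0.0234), on day 4 against day 0 (-1.05, adjusted p = 0.00837) and on day 4 against day 1.

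E2F1, the factor that drives many of these genes, passed edgeR's test in no comparison. E2F1 had 22.8, 22.4 and 34.2 CPM on day 0, 37.6, 41.7 and 35.1 CPM on day 1, 30.6, 25.8 and 38.6 CPM on day 2, 17.2, 24.96 and 21.4 CPM on day 3 and 26.2, 18.8 and 23.8 CPM on day 4. All libraries of day 1 were above those of day 0, and days 4 and 0 overlapped (-0.21 ± 0.28, adjusted p = 0.600). On day 4 against day 1 DESeq2 called E2F1 lower (log2 fold change -0.69, adjusted p = 0.0469), where edgeR gave -0.73 ± 0.28, adjusted p = 0.075. BLM, the helicase lost in Bloom syndrome, resolves stalled and joined DNA strands. BLM had 95.2, 153 and 56.8 CPM on day 0, 61.8, 95.95 and 61.9 CPM on day 1, 97.4, 95.2 and 32.3 CPM on day 2, 37.1, 33.97 and 15.6 CPM on day 3 and 52.2, 13.3 and 17.4 CPM on day 4. No library of day 4 reached one of day 0 (-1.88 ± 0.56, adjusted p = 0.0167), a call lost without replicate 2 of day 0 or without replicate 2 or replicate 4 of day 4. Without replicate 1 of day 4 the log2 fold change was -2.65.

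**Figure D5:**
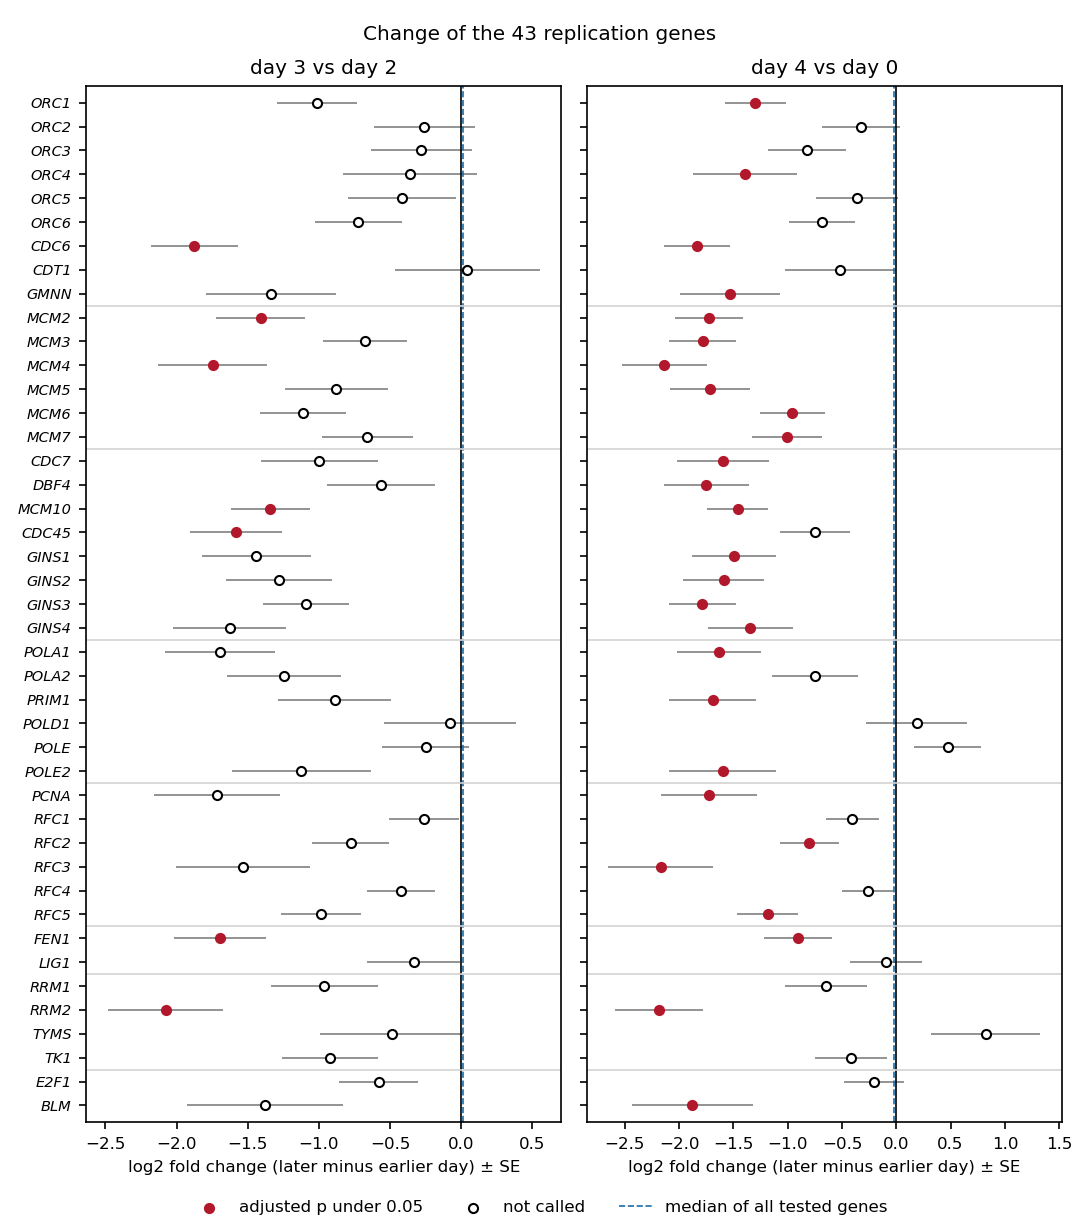
Log2 fold change ± SE (horizontal axis) of the 43 replication genes, 1 per row and grouped by role, on day 3 against day 2 (left panel) and day 4 against day 0 (right panel); filled points have an adjusted p under 0.05, 7 in the left panel and 27 in the right, and the dashed line is the median of all tested genes. Nearly all points lie left of that line, with TYMS, POLE and POLD1 to the right of 0 in the right panel.

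The 15 genes that fell in no comparison by edgeR on all libraries were ORC2, ORC3, ORC5, ORC6, CDT1, POLA2, POLD1, POLE, RFC1, RFC4, LIG1, RRM1, TYMS, TK1 and E2F1. DESeq2 called RFC4 and E2F1 of these lower on day 4 against day 1, and with GC and length trends removed CDT1, POLD1, LIG1 and TK1 were lower on day 4 against day 0. Which GC class changed more depended on the days compared. On day 4 against day 0 the 15 genes with at least 50% GC had a median of -0.75 with 7 lower, and the 28 others -1.51 with 20 lower. On day 3 against day 2 the medians were -0.78 and -1.10, on day 4 against day 1 they were -1.12 with 8 lower and -0.83 with 9 lower, and on day 2 against day 1 they were -0.63 and -0.04. On day 1 against day 0 the classes went opposite ways. The median was 0.45 with 3 of 15 genes below 0 in the GC-rich class, and -0.34 with 22 of 28 below 0 in the other. On day 4 against day 3 the medians were 0.25 and 0.19. The difference between the classes was not tested.

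Of 57 other replication genes, 1 rose and 24 fell on day 4 against day 0, with a median of -0.78. Among all tested genes 18.0% were called higher and 16.2% lower. The largest changes among those that fell were in DSCC1, of the alternative clamp loader (-2.37 ± 0.41, adjusted p = 0.000492), DUT, which removes dUTP (-2.28 ± 0.43, adjusted p = 0.000966), POLE4, a small polymerase epsilon subunit (-2.08 ± 0.42, adjusted p = 0.00158) and RRM2B, the p53-inducible reductase subunit (-1.89 ± 0.52, adjusted p = 0.0112). DUT had 36.2, 29.7 and 47.7 CPM on day 4, against 355 CPM in replicate 1 and 97.6 CPM in replicate 4 of day 0, with replicate 2 close to replicate 4. Without replicate 1 of day 0 the log2 fold change was -1.35 for DUT and -1.46 for POLE4, both still called, and the RRM2B call was lost without that library or replicate 2 of day 4. POLD4, the smallest subunit of polymerase delta, rose. It had 8.34, 12.8 and 11.1 CPM on day 4, against 3.53, 2.40 and 1.85 CPM on day 0, with no overlap (2.05 ± 0.35, adjusted p = 0.000464). Its rise was called on day 2 against day 1 (1.84 ± 0.35, adjusted p = 0.00397), where CDC25A, a phosphatase that activates CDK2, fell (-1.03 ± 0.29, adjusted p = 0.0367), a call lost without any of 8 single libraries. Among all tested genes 0.287% were called lower and 0.661% higher on day 3 against day 2. In that comparison 4 of the 57 fell and 0 rose by edgeR, 26 and 0 by unadjusted p, and 10 and 0 by DESeq2. The 4 were CCNE1, the cyclin that partners CDK2 (-1.71 ± 0.32, adjusted p = 0.0216), ASF1B and CHAF1B, histone chaperones at the fork (-1.52 ± 0.32, adjusted p = 0.0395 and -1.29 ± 0.24, adjusted p = 0.0216), and the repressor E2F8 (-1.40 ± 0.31, adjusted p = 0.0438); all 4 calls were lost without replicate 1 or 2 of day 2 or replicate 1 of day 3, those of ASF1B and E2F8 also without other single libraries. On day 1 against day 0 RRM2B alone passed, lower (-2.06 ± 0.52, adjusted p = 0.0176), a call lost without replicate 1 of day 0 or any library of day 1. Day 4 against day 1 had POLD4 higher and 13 lower, against 11.8% higher and 8.93% lower among all tested genes.

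Of 18 mitosis genes, 0 passed the test by edgeR on day 3 against day 2, although all 18 had a lower mean and the median was -0.70; unadjusted p gave 11 lower and 0 higher, and DESeq2 called 4 lower and 0 higher. On day 4 against day 0, 4 of the 18 fell (BUB1, BUB1B, KIF11 and TTK) and 0 rose by edgeR, with a median of -0.61. Among all tested genes 16.2% were called lower and 18.0% higher. Unadjusted p gave 7 of the mitosis genes lower and 1 higher, and DESeq2 called 6 lower and 1 higher. The BUB1, KIF11 and TTK calls were each lost without replicate 1 or 2 of day 0 or replicate 2 or 4 of day 4, and that of BUB1 also without other single libraries. CENPE, a motor protein of the kinetochore, rose on day 1 against day 0 (1.62 ± 0.32, adjusted p = 0.00319) and was lower on day 4 than on day 1 (-1.76 ± 0.32, adjusted p = 0.00123). The difference between the mitosis and replication lists was not tested.

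CDK inhibitors brake entry into S phase. Of 7, 5 rose on day 4 against day 0 and 0 fell by edgeR, by unadjusted p and by DESeq2. Among all tested genes 18.0% were called higher and 16.2% lower by edgeR. CDKN1B, the inhibitor p27, had 135, 135 and 84.5 CPM on day 4, against 51.5, 25.2 and 13.4 CPM on day 0, with no overlap (1.98 ± 0.44, adjusted p = 0.00329), and it rose on day 2 against day 1 (2.17 ± 0.45, adjusted p = 0.00654). CDKN1C, the inhibitor p57, had 47.04, 61.99 and 79.04 CPM on day 4, against 9.75, 3.87 and 11.1 CPM on day 0 (2.93 ± 0.43, adjusted p = 0.000134), and CDKN1A, the inhibitor p21, had 26.05, 14.4 and 53.8 CPM, against 10.3, 6.34 and 13.05 CPM (1.66 ± 0.59, adjusted p = 0.0408). Without replicate 4 of day 4 the CDKN1A change was 1.04 on the log2 scale and not called, as was so without replicate 1 or 2 of day 0 or replicate 4 of day 1, and without replicate 1 of day 0 that of CDKN1B was 2.65. CDKN2B and CDKN2C were near 0 on day 0 and low throughout. CDKN2C had 1.67, 2.52 and 3.85 CPM on day 4 (adjusted p = 6.95e-05 against day 0), and CDKN2B had 3.05, 2.12 and 1.32 CPM on day 1, where its rise was called (adjusted p = 0.00107 against day 0). CDKN2C rose on day 2 against day 1 (adjusted p = 0.0018). No relation between these genes and the replication genes was tested.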

How the data were processed

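RNA was polyA-selected and made into directional libraries, per the labels' protocols. TopHat2 2.0.14 and the human build hg19 are named in the submitters' processing notes; how reads were counted, on which annotation and with what strand setting, is not stated in the sources used here. The authors deposited raw counts per gene symbol and library. The table had 23398 entries; of 52 repeats of a symbol, 44 were identical and dropped and 8 summed, leaving 23346 symbols, 2605 with no count. All counts were even. Libraries of a day differed far beyond counting noise (chi-square over genes divided by its degrees of freedom, 38.1 at the least), so none was taken as a copy.

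The main test was edgeR 4.0.16's quasi-likelihood F-test (limma 3.58.1, R 4.3.3) with TMM scaling, filterByExpr by day (17401 genes) and 1 fit of all 15 libraries with a mean for each day. Benjamini-Hochberg adjusted p under 0.05 over all tested genes was called. The common biological coefficient of variation was 45.6%. SEs are the log2 fold change over the root of F. Data were simulated from these libraries for day 4 against day 0, with 16359 genes, 100 of them changed 2-fold and 100 changed 4-fold. The fit called 0 of the former and 61 of the latter. In the real comparison 3137 genes were called higher and 2811 lower. With so many more calls the adjusted p is less strict, so the simulation does not give the detection limit there. DESeq2 1.42.0 was an alternative. Transcript length and GC content were those of the longest GENCODE 29 transcript on GRCh38, not the build of the counts; 87.9% of tested genes had them. Tables were made with Python 3.11.15 and pandas 2.3.3.

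The 43 genes, the other lists and the tests were chosen with earlier results of these data known. Per-library values are given for members called in a comparison, up to 4 per comparison with the largest change, for the member of each role with the highest level and with the widest range of day means, and for E2F1, PCNA, CDT1, GMNN, ORC1, CDC6 and RRM2. Other members given values were named after these were seen. Of the other lists, up to 4 called genes per comparison are named.

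Alternatives were DESeq2's size factors, scaling by library totals, tests without a filter or with CPM above 1 in 3 libraries, counts halved, DESeq2, a block for the replicate number, only the days compared, each library left out, and replicate 1 of days 3 and 4 left out. No label pairs the libraries; deviations of same-numbered libraries from their day means correlated above 0.1 for all 3 numbers between days 2 and 3 and between days 3 and 4, and in no other comparison made, so the block is given beside those 2. Added after the data were seen were offsets that remove GC and length trends, these with the block, and a fit without the 5 libraries numbered 4.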

Additional observations from a re-analysis of the deposited data

How the results depend on the processing

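Counts of the 43 genes called on day 4 against day 0, on day 4 against day 1 and jointly stayed within 1.5 times under DESeq2's size factors, library totals alone, no filter, CPM over 1 in 3 libraries, DESeq2, counts halved and either group of libraries left out. Of the 27 genes lower on day 4 against day 0, 18 were called in each of 27 alternatives, as were 12 of 17 against day 1, and 22 of 28 in the joint test under each of 26. With single libraries left out the count was 18 to 27 on day 4 against day 0, 12 to 23 against day 1 and 24 to 32 jointly. None of the 7 calls of day 3 against day 2 and not the call of day 2 against day 1 held under every alternative, and no called gene changed direction.

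The consecutive days moved more. Under DESeq2, day 1 had 1 gene higher, day 2 had 3 lower and day 3 had 17 lower than the day before. Fitting only the days compared gave 5 lower on day 2 and 0 on day 3. Without replicate 1 of days 3 and 4, 1 gene (PRIM1) was lower on day 1 and 1 on day 3. Without the 5 libraries numbered 4, 2 genes were higher and 2 lower on day 1, 3 lower on day 2 (CDT1, MCM5 and MCM7) and 1 lower on day 3. With GC and length trends removed, 1 was lower on day 1 (ORC4), 1 higher (ORC5) and 5 lower on day 2, and 19 lower on day 3. Leaving out single libraries gave 0 to 4 higher and 0 to 1 lower on day 1, 0 to 1 higher and 0 to 2 lower on day 2, and 0 to 10 lower on day 3. The cause was not tested.

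Same-numbered libraries of different days deviated together in 22 of 30 pairs (correlation above 0.1, range -0.489 to 0.815, over 10863 genes), and differently numbered ones in 21 of 60 (-0.807 to 0.633), while a library correlated best with its own number in 33 of 60 pairings of a library with another day, and 0 of 15 libraries did so in every other day. Every same-numbered pair was above 0.1 between days 2 and 3 and between days 3 and 4. In each of the other comparisons made at least 1 was not. Days 0 and 2, which were not compared, had 0.392, 0.698 and 0.774 for numbers 1, 2 and 4. The labels give same-numbered libraries no tie but the number. With the replicate number as a block, 1 gene was lower on day 1 (ORC4), 1 higher (ORC5) and 6 lower on day 2, 16 lower on day 3 and 26 lower on day 4 against day 1. The block with GC and length trends removed gave 1 lower on day 1, 1 higher and 7 lower on day 2, 23 lower on day 3, 1 higher on day 4 against day 0 (TYMS) and 29 lower against day 1. Every gene had at least 370 counts per library. With counts halved the same genes were called on day 4 against day 0. POLA1 was then also called lower on day 3 against day 2, and RFC5 on day 4 against day 1. What limits these tests was not tested.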
